A study of Mus musculus with 10 samples.

Results

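The Ly6 genes encode small surface proteins, and 7 of them (Ly6g, Ly6a, Ly6c1, Ly6c2, Ly6e, Ly6i and Ly6d) were followed by gene symbol among the 55385 mouse genes of a bulk RNA-seq table. The RNA came from Tomato+ cells that the labels call neutrophils, sorted from grafted mouse squamous cell carcinomas (SCC). Control grafts were the parental Sox2low cells, whose libraries are described with the name GFP, and the other grafts were Sox2Hi SCC cells. The description of every library, in all 4 groups, begins with C57. Sox2 is a transcription factor that stem cells of several tissues depend on. Every host was a CatchupIVM-red mouse, and treated hosts received anti-PDL1 with a CD40 agonist once tumours were established, while naive hosts were untreated. Untreated hosts gave 3 libraries for each graft and treated hosts 2 for each, and the question was whether Sox2 in the graft changes how neutrophils respond to interferons. Doses, times, host age and host sex are not stated in the labels, nor whether a library is 1 mouse or a pool, so the tests measure the spread between these libraries.

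Ly6 proteins share a compact fold held by disulfide bonds and are held on the cell surface by a lipid (GPI) anchor. Ly6G is the surface antigen by which mouse neutrophils are usually recognised, Ly6C marks monocytes and some lymphocytes, and Ly6A, also called Sca-1, marks blood stem cells. Several of the genes, Ly6a, Ly6c2 and Ly6e among them, are known to respond to interferons. In CatchupIVM-red mice the sequence for Cre recombinase and tdTomato sits in the Ly6g gene itself, and Cre also switches on another copy of tdTomato elsewhere in the genome. Ly6g is therefore both a member of the family and the gene whose reporter selected the cells.

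All 7 genes lie within 397.1 kb of chromosome 15 (GRCm38, GENCODE M21). In order along it they are Ly6d (74762056 to 74763620), Ly6e (74955051 to 74959905), Ly6i (74979534 to 74983430), Ly6a (74994877 to 74998031), Ly6c1 (75044018 to 75048830), Ly6c2 (75108158 to 75111970) and Ly6g (75155240 to 75159126). Ly6e and Ly6g are on the plus strand and the others on the minus strand. The coding sequences of Ly6c1 and Ly6c2 are 97.7% identical, with 9 differing bases of 393. Ly6a and Ly6i are 86.3% identical, and Ly6d and Ly6e are between 46.9% and 52.3% identical to any other member. The closeness of Ly6c1 and Ly6c2 matters here because the deposited counts separate them. Their first 120 coding bases, from the start codon, hold 6 of the 9 differences, which are in capitals (GENCODE M21):
Ly6c1: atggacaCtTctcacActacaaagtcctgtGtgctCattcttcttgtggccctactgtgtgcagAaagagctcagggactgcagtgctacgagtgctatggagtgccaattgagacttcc
Ly6c2: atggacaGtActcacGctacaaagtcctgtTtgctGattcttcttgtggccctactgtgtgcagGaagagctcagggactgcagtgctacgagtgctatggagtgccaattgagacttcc

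A stretch of 31 bases of transcript, the length kallisto matches by default, was also found in the transcripts of another gene of GENCODE M21 for 46.8% of such stretches of Ly6c1 and 23.7% of those of Ly6c2. The share was 31.9% for Ly6a, 19.2% for Ly6i, 9.55% for Ly6g, 0.42% for Ly6e and 0 for Ly6d. Counts of Ly6c1, Ly6c2, Ly6a and Ly6i are thus estimates that divide shared reads, and each pair is also given as a sum. Ly6c2 held 33.0% of the stretches of Ly6c1, and Ly6a held 9.17% of those of Ly6i. The gene sharing most with Ly6a was Ly6c1 (21.9% of the stretches of Ly6a). Neither sum covers reads divided between the pairs.

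RefSeq's promoter table (GRCm38.p6) held 3 of the 7 genes. The 250 bases before the RefSeq start are shown for 2 genes that rose after treatment in both grafts, Ly6c2 and Ly6g. Those of Ly6c1, which did not rise, follow. The RefSeq start of Ly6g lies inside the GENCODE interval given above, so the last bases shown for it are within that interval. Capitals mark GAGGAAGT, the core bound by PU.1, a transcription factor of myeloid cells.
Ly6c2, chr15:75111972-75112221, minus strand: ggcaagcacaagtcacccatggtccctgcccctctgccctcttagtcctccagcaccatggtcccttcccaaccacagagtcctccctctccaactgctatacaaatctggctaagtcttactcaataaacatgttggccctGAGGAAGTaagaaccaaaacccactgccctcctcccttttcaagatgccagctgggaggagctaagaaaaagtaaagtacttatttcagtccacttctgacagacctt
Ly6g, chr15:75155011-75155260, plus strand: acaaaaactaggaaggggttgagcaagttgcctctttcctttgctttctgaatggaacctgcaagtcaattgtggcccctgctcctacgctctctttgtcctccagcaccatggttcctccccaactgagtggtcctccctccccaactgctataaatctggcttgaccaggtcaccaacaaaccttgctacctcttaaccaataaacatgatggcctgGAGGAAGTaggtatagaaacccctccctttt
Ly6c1, chr15:75048838-75049087, minus strand: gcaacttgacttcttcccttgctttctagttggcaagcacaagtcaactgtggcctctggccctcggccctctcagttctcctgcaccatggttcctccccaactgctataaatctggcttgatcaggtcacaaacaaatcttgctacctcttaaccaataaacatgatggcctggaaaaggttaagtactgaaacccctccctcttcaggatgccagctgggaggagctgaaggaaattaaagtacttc

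The table gives 6 start windows for these genes, each also holding the first 50 bases of the transcript and searched on both strands. GAGGAAGT was in both windows of Ly6c2, in both of Ly6g and in 1 of those of Ly6c1, against 3.2% of the 32851 promoters in the table. The interferon-response motif GAAANNGAA, the STAT motif TTCNNNGAA and the C/EBP motif TTGCGCAA were in none of the 6 windows. They were in 8.56%, 8.3% and 0.183% of all promoters. These are matches of letters only.

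After treatment, neutrophils of both grafts carried far more Ly6i and Ly6c2 RNA, and more Ly6g. In control grafts Ly6a and Ly6e rose as well, and Ly6i came to hold the highest level per length of the 7. Ly6c1, nearly identical to Ly6c2 in sequence, did not pass the test after treatment in either graft on the all-gene scale, and was called lower in control grafts under 4 of 23 alternatives. In bulk RNA a change in the number of cells of a type and a change in RNA per cell cannot be told apart. The values of each gene follow, in CPM, read counts scaled to a common library size, with TMM factors from all tested genes (the all-gene scaling) unless another scale is named. The plot of levels by library shows all of them.

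**Figure D1:**
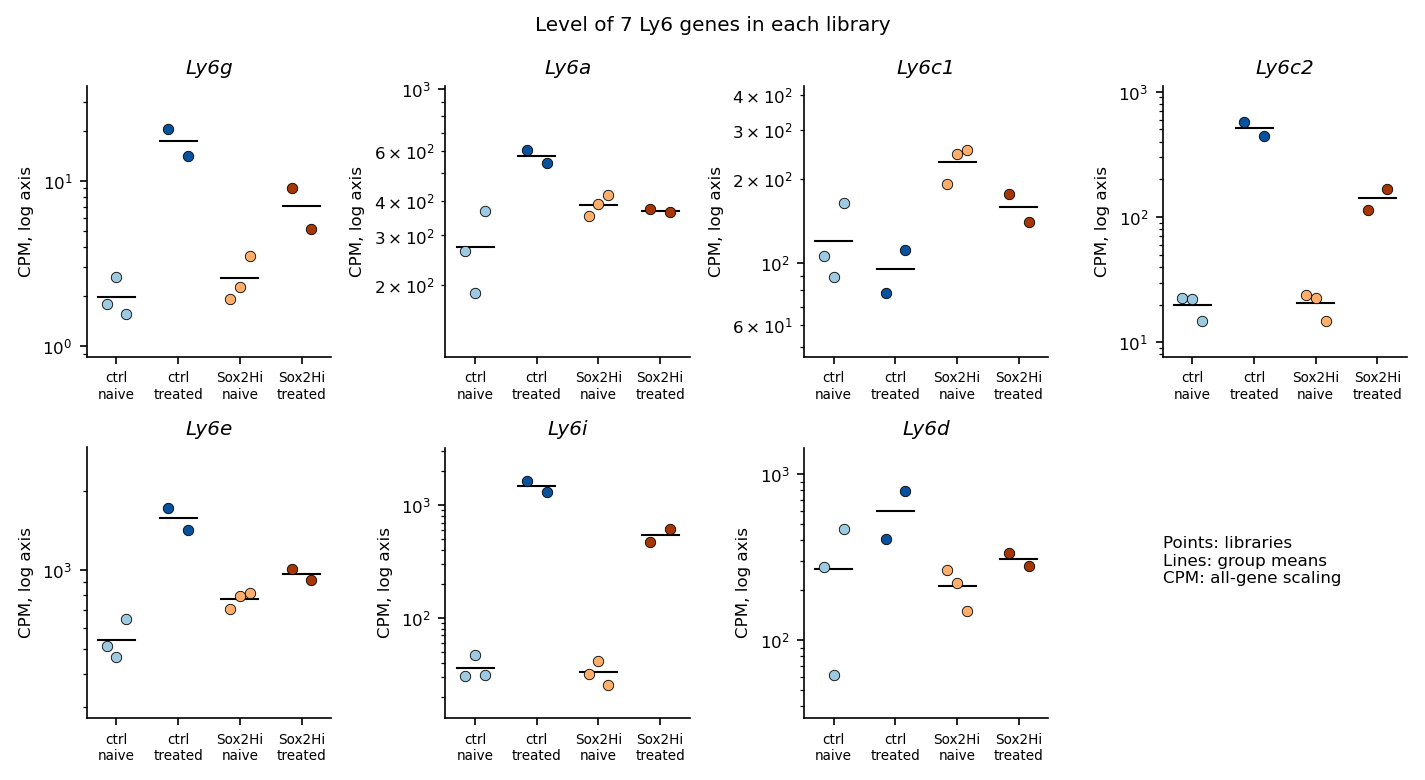
Level of each of the 7 genes (y axis, CPM with all-gene scaling, log axis with its own range for each gene) in the 10 libraries, by group on the x axis. Points are libraries and horizontal lines are group means. Ly6i and Ly6c2 sit an order of magnitude higher in treated than in naive libraries of control grafts, and Ly6c1 does not.

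Ly6g, the neutrophil antigen and reporter locus, was sparse. Control naive libraries held 36, 50 and 32 reads (1.80, 2.60 and 1.57 CPM), and control treated libraries 246 and 192 reads (20.6 and 14.2 CPM). Sox2Hi naive libraries held 38, 39 and 63 reads (1.92, 2.27 and 3.53 CPM), and Sox2Hi treated libraries 162 and 85 reads (9.06 and 5.13 CPM). Treated libraries lay above naive ones in each graft, and the control treated pair lay above the Sox2Hi treated pair. In control grafts Ly6g rose by 3.13 on the log2 scale (SE 0.33, 8.74-fold, edgeR quasi-likelihood test, adjusted p = 4.1e-05). In Sox2Hi grafts it rose by 1.47 (SE 0.33, 2.76-fold, edgeR adjusted p = 0.036). That call did not hold with the title numbers as a replicate block (1.52, edgeR adjusted p = 0.059). Nor did it hold without Sox2Hi treated replicate 1 (1.01, adjusted p = 0.21) or replicate 2 (1.80, adjusted p = 0.097), without any 1 Sox2Hi naive library, or without control naive replicate 1. An expected background from genes silent in these cells made up between 0.963% and 19.3% of the Ly6g reads of a library.

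tdTomato, the reporter RNA, was counted in every library. Control naive libraries held 259, 135 and 234 reads and control treated libraries 320 and 514. Sox2Hi naive libraries held 314, 223 and 192 reads and Sox2Hi treated libraries 443 and 232. On the CPM scale tdTomato was at 10.5 ± 3.1 (SD, n = 3) without and 32.4 ± 7.9 (SD, n = 2) with treatment of control grafts. The values for Sox2Hi grafts were 13.2 ± 2.6 (SD, n = 3) and 19.4 ± 7.6 (SD, n = 2). These levels depend on the scaling. With TMM factors from genes of at least 5 CPM, control naive libraries were at 15.7, 9.46 and 12.7 CPM. Control treated libraries were then at 23.1 and 30.6 CPM. Sox2Hi libraries were at 15.4, 12.3 and 9.71 CPM without and 28.2 and 15.8 CPM with treatment. The treated groups overlapped on that scale. Ly6g made up 12.2%, 27.0% and 12.03% of the sum of Ly6g and tdTomato reads in control naive libraries and 43.5% and 27.2% in control treated ones. In Sox2Hi grafts the shares were 10.8%, 14.9% and 24.7% before treatment and 26.8% and 26.8% after it. This ratio, added after the data were seen, needs no scaling factor. It was 14.1 percentage points higher in treated than in naive libraries, averaged over grafts (exact two-sided permutation within grafts, p = 0.02, adjusted over 9 such tests 0.06). The labels give no zygosity of the reporter allele, so the ratio does not compare alleles.

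Ly6c2 encodes a Ly6C protein carried at high density by inflammatory monocytes. Control naive libraries were at 22.7, 22.1 and 14.7 CPM and control treated libraries at 578 and 444 CPM. Sox2Hi naive libraries were at 23.9, 22.7 and 14.8 CPM and Sox2Hi treated libraries at 115 and 167 CPM. The naive groups overlapped, every treated library was several times above every naive one, and the treated groups did not overlap. The rise was 4.69 in control grafts (SE 0.29, 25.7-fold, edgeR adjusted p = 3.4e-06) and 2.78 in Sox2Hi grafts (SE 0.27, 6.88-fold, edgeR adjusted p = 0.0005).

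Ly6c1 encodes the other Ly6C protein, also found on endothelial cells. Control naive libraries were at 106, 89.1 and 165 CPM and control treated libraries at 78.6 and 111 CPM. Sox2Hi naive libraries were at 192, 246 and 253 CPM and Sox2Hi treated libraries at 177 and 141 CPM. Both Sox2Hi groups lay above the control group of the same treatment. Treatment gave -0.33 in control grafts (SE 0.27, edgeR adjusted p = 0.34) and -0.54 in Sox2Hi grafts (SE 0.27, edgeR adjusted p = 0.27). Neither passed the test. With library totals as the only scaling Ly6c1 was called lower in control grafts (-1.39, edgeR adjusted p = 0.00067), in a fit that called 68.0% of all genes lower, and so it was after subtraction of the silent-gene background (-0.90) and with TMM factors from well-expressed genes only, whether fitted on those genes or on all genes tested (-0.87 in each).

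The Ly6c pair therefore changed in makeup. Its share was added after the data were seen and uses the same reads as the values above. The test of the share is therefore no separate support for the rise of Ly6c2. Ly6c2 made up 17.7%, 19.9% and 8.22% of the pair's reads in control naive libraries and 88.0% and 79.9% in control treated ones. It made up 11.0%, 8.46% and 5.54% in Sox2Hi naive libraries and 39.4% and 54.3% in Sox2Hi treated ones. The widest Wilson 95% interval, of control naive replicate 2, ran from 18.25% to 21.63%, so counting error is small beside these differences. The interval does not cover error in dividing the reads that the genes share, or the spread between libraries. The share was 53.6 points higher in treated than in naive libraries, averaged over grafts (exact two-sided permutation within grafts, p = 0.01, the smallest that 100 arrangements can give, adjusted over 9 tests 0.045). Between grafts it was 22.0 points lower in Sox2Hi libraries, averaged over treatments (exact two-sided permutation within treatments, p = 0.05, adjusted 0.09). It was lower in Sox2Hi in all 3 naive pairs of the same title number, and with naive libraries exchanged only within these pairs the exact permutation p was 0.042, the smallest that 48 arrangements can give (adjusted 0.075). In treated libraries alone it was 37.1 points lower, where 2 against 2 libraries cannot give an exact p under 0.333. Summed, Ly6c1 and Ly6c2 rose by 2.12 in control grafts (edgeR adjusted p = 2.8e-05) and gave 0.26 in Sox2Hi grafts (edgeR adjusted p = 0.52). Between naive grafts the sum was higher in Sox2Hi by 0.85 (edgeR adjusted p = 0.049), where neither gene alone was called. Between treated grafts it was lower in Sox2Hi (-1.01, edgeR adjusted p = 0.019), and its interaction was -1.86 (adjusted p = 0.0046).

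**Figure D2:**
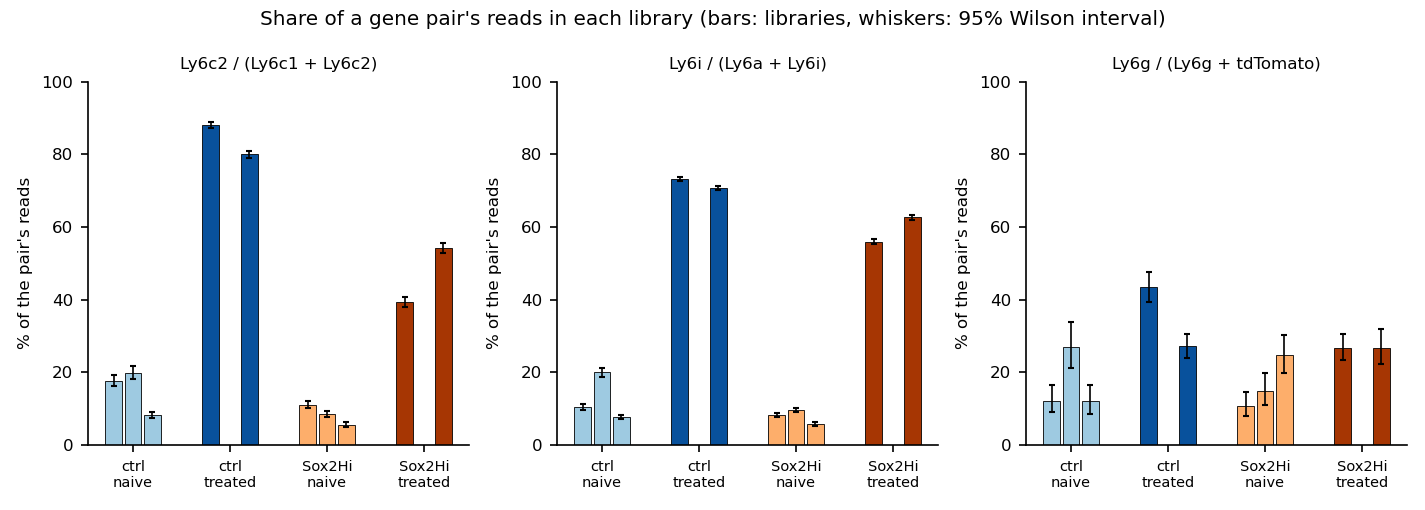
Share of a gene pair's reads in each library (y axis, percent), by group on the x axis; bars are libraries and whiskers 95% Wilson intervals, which cover counting error only. Ly6c2 runs from 5.54% to 19.9% of its pair in naive libraries and from 39.4% to 88.0% in treated ones, Ly6i from 5.71% to 19.96% and from 56.0% to 73.1%, and Ly6g shares overlap.

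Ly6i, a close relative of Ly6a, had the largest estimated rise of the 7 in both grafts. Control naive libraries were at 30.7, 46.7 and 31.03 CPM and control treated libraries at 1648 and 1318 CPM. Sox2Hi naive libraries were at 31.5, 41.5 and 25.3 CPM and Sox2Hi treated libraries at 473 and 612 CPM. As with Ly6c2, the naive groups overlapped and the treated groups were apart. The treated groups were apart for every member on this scale, also for those not called. The rise was 5.36 in control grafts (SE 0.28, 41.0-fold, edgeR adjusted p = 1.5e-06) and 4.05 in Sox2Hi grafts (SE 0.27, 16.5-fold, edgeR adjusted p = 2.8e-05).

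Ly6a (Sca-1) moved less. Control naive libraries were at 265, 187 and 368 CPM and control treated libraries at 605 and 545 CPM. Sox2Hi naive libraries were at 352, 390 and 418 CPM and Sox2Hi treated libraries at 372 and 365 CPM. Only in control grafts were the treated libraries apart from the naive ones on this scale. Ly6a rose by 1.07 in control grafts (SE 0.23, 2.10-fold, edgeR adjusted p = 0.0052) and gave -0.07 in Sox2Hi grafts (SE 0.24, edgeR adjusted p = 0.90). With library totals as the only scaling its rise in control grafts was 0.03 (edgeR adjusted p = 0.89), and that was 1 of 2 among 23 alternatives without a call.

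Ly6i made up 10.4%, 19.96% and 7.78% of the reads of Ly6a and Ly6i in control naive libraries and 73.1% and 70.7% in control treated ones. It made up 8.23%, 9.62% and 5.71% in Sox2Hi naive libraries and 56.0% and 62.7% in Sox2Hi treated ones. This share was likewise added after the data were seen. It was 55.3 points higher in treated libraries (exact two-sided permutation within grafts, p = 0.01, adjusted over 9 tests 0.045). Between grafts it was 8.74 points lower in Sox2Hi libraries (exact two-sided permutation within treatments, p = 0.05, adjusted 0.09). It too was lower in all 3 naive pairs, and the paired exact permutation gave the same p as for Ly6c2 (0.042, adjusted 0.075). The pair's sum rose by 2.73 in control grafts (edgeR adjusted p = 9.3e-06) and by 1.12 in Sox2Hi grafts (adjusted p = 0.022). Between naive grafts the sum gave 0.44 (edgeR adjusted p = 0.17), between treated grafts -1.18 (adjusted p = 0.013), and its interaction was -1.61 (adjusted p = 0.0060).

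Ly6e is a broadly expressed member that restricts infection by some viruses. Control naive libraries were at 512, 463 and 649 CPM and control treated libraries at 1717 and 1425 CPM. Sox2Hi naive libraries were at 709, 797 and 816 CPM and Sox2Hi treated libraries at 1012 and 915 CPM. Treated libraries were above naive ones in each graft on this scale. Ly6e rose by 1.54 in control grafts (SE 0.18, 2.90-fold, edgeR adjusted p = 8.4e-05) and gave 0.32 in Sox2Hi grafts (SE 0.18, edgeR adjusted p = 0.35).

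Ly6d, a gene of keratinocytes and early lymphoid cells, varied widely within the control groups. Control naive libraries were at 276, 61.5 and 468 CPM and control treated libraries at 407 and 797 CPM. Sox2Hi naive libraries were at 264, 222 and 151 CPM and Sox2Hi treated libraries at 336 and 281 CPM. Groups overlapped in control grafts. Treatment gave 1.16 there (SE 0.58, edgeR adjusted p = 0.13) and 0.54 in Sox2Hi grafts (SE 0.58, edgeR adjusted p = 0.64), and neither passed. Leaving out 1 library gave values from 0.62 (without control treated replicate 2, edgeR adjusted p = 0.56) to 1.83 (without control naive replicate 3, adjusted p = 0.033) in control grafts. Keratinocyte and squamous tumour markers, 13 genes, summed to 0.347%, 0.249% and 0.525% of counts in the control naive libraries, in the order of the Ly6d values above. They summed to 0.165% and 0.0976% in treated control libraries. In Sox2Hi grafts the sums were 0.458%, 0.419% and 0.602% without and 0.320% and 0.193% with treatment. The part of tumour RNA in the Ly6d level was not tested.

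Divided by exon length (CPM per kb of the longest coding transcript), the order of the 7 genes changed with treatment. In control naive libraries Ly6d led at 361 ± 274, then Ly6a at 286 ± 95 and Ly6e at 237 ± 42 (SD, n = 3), and the ranges of neighbours among these overlapped. Ly6c1 followed at 142 ± 47, then Ly6i at 31.3 ± 7.9 and Ly6c2 at 24.1 ± 5.4, which overlapped each other, and Ly6g at 2.11 ± 0.58 (SD, n = 3). In control treated libraries Ly6i led at 1283 ± 202, apart from the next, Ly6d at 809 ± 371 (SD, n = 2). Ly6e at 689 ± 90, Ly6c2 at 621 ± 116 and Ly6a at 602 ± 45 overlapped their neighbours (SD, n = 2). Ly6c1 was at 113 ± 28 and Ly6g at 18.5 ± 4.8 (SD, n = 2). In Sox2Hi naive libraries Ly6a led at 405 ± 35, apart from Ly6e at 339 ± 25 (SD, n = 3). In Sox2Hi treated libraries Ly6i at 469 ± 85, Ly6e at 422 ± 30, Ly6d at 415 ± 52 and Ly6a at 386 ± 5.5 formed a run of overlapping neighbours (SD, n = 2). Ly6g was last in all 4 groups.

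All 7 genes passed the filter on low counts, among 29648 genes tested. For treated against naive in control grafts, 5 of the 7 were called higher (edgeR adjusted p under 0.05) and none lower, where 18.7% of all genes tested were called higher. In Sox2Hi grafts 3 of 7 (Ly6g, Ly6c2 and Ly6i) were called higher, where 1.79% of all genes were. The median log2 fold change over the 7 was 1.54 in control and 0.54 in Sox2Hi grafts, beside medians over all genes tested of -0.30 and 0.07.

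The choice of scaling moved every value. TMM factors from the 11274 genes of at least 5 CPM (the expressed-gene scaling) shifted the log2 fold changes of genes in both fits by a median of -0.55 in control and 0.27 in Sox2Hi grafts. On that scale the rises in control grafts were 4.79 for Ly6i, 4.12 for Ly6c2, 2.57 for Ly6g, 1.00 for Ly6e and 0.55 for Ly6a, all called by edgeR. The background of higher calls was 24.1%. Ly6c1 was called lower in control grafts on that scale (-0.87, edgeR adjusted p = 0.0070), where 33.1% of genes were called lower. In Sox2Hi grafts Ly6i (4.31), Ly6c2 (3.04) and Ly6g (1.75) were again called, and Ly6e as well (0.59, edgeR adjusted p = 0.029), where 15.0% of genes were called higher. Ly6i, Ly6c2, Ly6g and Ly6e were called higher in control grafts, and Ly6i and Ly6c2 in Sox2Hi grafts, under each of the 23 alternatives that kept the genes apart. Summed with Ly6c1, Ly6c2 was not called in Sox2Hi grafts, as given above.

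**Figure D3:**
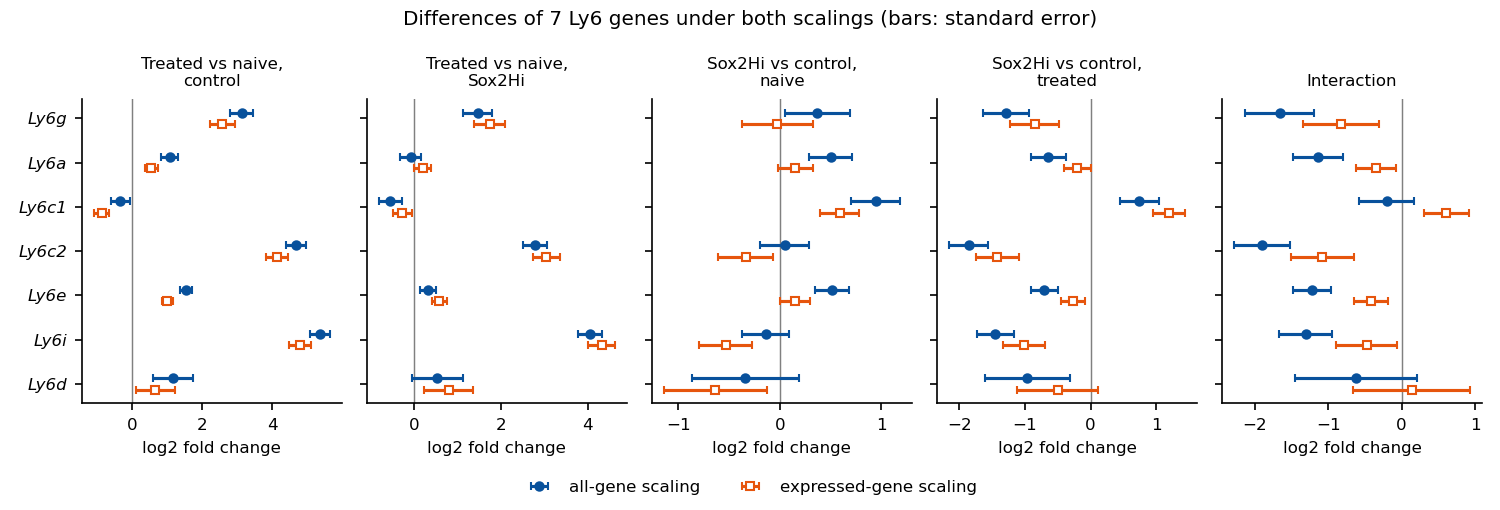
Log2 fold change (x axis, points, with bars of 1 standard error) of each of the 7 genes (y axis) in the 5 contrasts, under the all-gene scaling (filled circles) and the expressed-gene scaling (open squares). Ly6i and Ly6c2 are far from 0 after treatment under both scalings, and in the interaction panel every value moves toward or past 0 with the expressed-gene scaling.

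Between naive neutrophils of the Sox2Hi and control grafts, the libraries overlapped for Ly6g (0.37, SE 0.32), Ly6c2 (0.05, SE 0.24), Ly6i (-0.14, SE 0.23), Ly6d (-0.34, SE 0.53) and Ly6a. None of the 7 genes was called between these grafts by edgeR. At unadjusted p under 0.05 there were 3, Ly6c1, Ly6e and Ly6a. Of all genes tested 1.87% were called, and 14.0% with the expressed-gene scaling, which also called none of the 7. Ly6c1 came closest, higher in Sox2Hi in all 3 libraries (0.94, SE 0.24, 1.92-fold, edgeR adjusted p = 0.060). With the title numbers, taken to pair the naive libraries, as a replicate block it was called (0.98, edgeR adjusted p = 0.028). In a blocked fit of the 6 naive libraries alone it was called likewise (0.90, edgeR adjusted p = 0.017). The blocked fit of all libraries called 7.7% of all genes, and that of the naive libraries 14.3%. DESeq2 called Ly6c1, Ly6e and Ly6a higher in Sox2Hi, and so did limma-voom and edgeR without control naive replicate 3. These fits called 13.7%, 18.8% and 7.39% of all genes in either direction. Ly6e gave 0.52 (SE 0.17, edgeR adjusted p = 0.092) and Ly6a 0.50 (SE 0.21, edgeR adjusted p = 0.16). Both fell to 0.15 with the expressed-gene scaling.

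Among treated neutrophils, those of Sox2Hi grafts carried less Ly6c2, Ly6i, Ly6g and Ly6e than those of control grafts on the all-gene scale. Ly6c2 gave -1.86 (SE 0.30, edgeR adjusted p = 0.0071), Ly6i -1.45 (SE 0.28, adjusted p = 0.011), Ly6g -1.29 (SE 0.35, adjusted p = 0.033) and Ly6e -0.71 (SE 0.20, adjusted p = 0.041). Of 23 alternatives, 20 called Ly6c2, 19 Ly6i, 12 Ly6g and 7 Ly6e. Ly6g and Ly6e were not called with the description numbers as a replicate block (-1.17, edgeR adjusted p = 0.10, and -0.69, adjusted p = 0.086). Ly6e was also not called with the level of the Y-linked gene Ddx3y as a covariate (-0.71, edgeR adjusted p = 0.057), with no filter on low counts (-0.82, adjusted p = 0.074) or without any 1 Sox2Hi naive library. The background of lower calls was 9.57%. With the expressed-gene scaling Ly6c2 (-1.42, edgeR adjusted p = 0.017) and Ly6i (-1.01, adjusted p = 0.046) were still called lower, where 5.87% of genes were, and Ly6g (-0.85, adjusted p = 0.13) and Ly6e (-0.26, adjusted p = 0.32) were not. After subtraction of the silent-gene background none of the 4 was called lower: Ly6c2 gave -1.41 (edgeR adjusted p = 0.054), Ly6i -0.995 (0.12), Ly6g -0.88 (0.27) and Ly6e -0.25 (0.44), and the only call was Ly6c1, higher (1.22, adjusted p = 0.029). That fit called 2.6% of all genes higher and 0.872% lower. With library totals only, Ly6c2 was called lower (-1.14, edgeR adjusted p = 0.012) and Ly6c1 higher (1.51, adjusted p = 0.0036), where 1.03% of all genes were called lower and 36.0% higher. With the expressed-gene scaling Ly6c1 was called higher in Sox2Hi (1.20, edgeR adjusted p = 0.011), where 15.0% of genes were called higher. On the all-gene scale, where 4.18% were, Ly6c1 was 0.74 (SE 0.29, edgeR adjusted p = 0.11), Ly6a -0.64 (SE 0.26, adjusted p = 0.12) and Ly6d -0.96 (SE 0.65, adjusted p = 0.32). Each group holds 2 libraries: without Sox2Hi treated replicate 1, or with the 4 treated libraries fitted alone, none of the 7 was called, in fits that called 0.204% and 0.00791% of all genes in either direction, against 13.7% with all libraries. Ly6c2 was then -1.68 (edgeR adjusted p = 0.072) and -1.74 (adjusted p = 0.066). Without control naive replicate 1, either control treated replicate or Sox2Hi treated replicate 2, 2 of the 7 were called, and between 4.47% and 9.31% of all genes.

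The test of whether the treatment response itself differed between grafts was the interaction. On the all-gene scale it was negative, a smaller response in Sox2Hi, for Ly6c2 (-1.90, SE 0.38, edgeR adjusted p = 0.0067), Ly6g (-1.66, SE 0.47, adjusted p = 0.025), Ly6i (-1.31, SE 0.36, adjusted p = 0.022), Ly6e (-1.22, SE 0.26, adjusted p = 0.0086) and Ly6a (-1.14, SE 0.34, adjusted p = 0.029). These 5 of 7 compare with 16.2% of all genes called lower. With the expressed-gene scaling, which moved the interaction by a median of 0.82, none of the 7 was called, where 19.8% of genes were called in either direction, though 1 (Ly6c2, unadjusted p = 0.028) was under 0.05 before adjustment. The values were then -1.08 for Ly6c2 (edgeR adjusted p = 0.10), -0.82 for Ly6g (0.30), -0.48 for Ly6i (0.47), -0.42 for Ly6e (0.25) and -0.35 for Ly6a (0.42). Ly6c1 was -0.20 on the all-gene scale (SE 0.38, edgeR adjusted p = 0.69) and 0.61 on the other. Ly6d was -0.62 (SE 0.83, edgeR adjusted p = 0.58) and 0.14. The Ly6g call did not hold with the description numbers as a replicate block (-1.57, edgeR adjusted p = 0.059). Without control naive replicate 1 or control treated replicate 1, 2 of the 7 were called, and without Sox2Hi naive replicate 3 or either Sox2Hi treated replicate, 3 were. These fits called between 12.3% and 20.1% of all genes in either direction, against 27.5% with all libraries. The pair shares given above, which no scaling touches, went from 8.35% ± 2.8 (SD, n = 3) to 46.8% ± 11 (SD, n = 2) for Ly6c2 in Sox2Hi and from 15.3% ± 6.2 (SD, n = 3) to 84.0% ± 5.7 (SD, n = 2) in control grafts. The share of Ly6i in its pair with Ly6a went from 7.85% ± 2.0 (SD, n = 3) to 59.3% ± 4.7 (SD, n = 2) in Sox2Hi and from 12.7% ± 6.4 (SD, n = 3) to 71.9% ± 1.7 (SD, n = 2) in control grafts. Whether these changes in share differ between grafts was not tested.

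**Figure D4:**
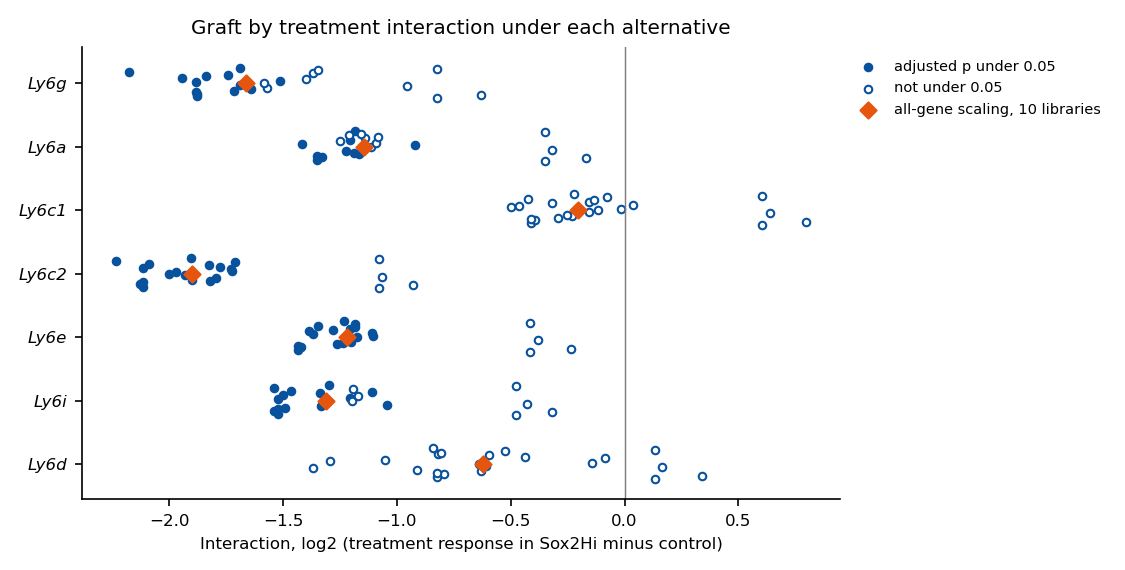
Graft by treatment interaction of each of the 7 genes (x axis, log2, response in Sox2Hi minus response in control; y axis, genes) under each alternative. Filled points have an adjusted p under 0.05, open points do not, and the diamond is the value with the all-gene scaling and 10 libraries. The values of Ly6c2, Ly6g, Ly6e, Ly6i and Ly6a are negative under each alternative, and those nearest 0 come from other scalings or background subtraction and are not called.

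Several measures of the libraries moved with treatment in control grafts. Total counts ran from 13815734 to 22986193 per library, and the TMM factors were 0.63 and 0.589 in control treated libraries against 0.93 to 1.40 in the others. Reads expected from silent genes made up 1.58% and 1.74% of counts in control treated libraries and 3.63% to 8.37% in the others. The 20 neutrophil markers summed to 3.57% to 3.66% of counts in control treated libraries and 1.66% to 2.59% in the other 3 groups, and of these 20 only Elane, a marker of immature neutrophils, was at 0 in any library. Monocyte and macrophage markers, 14 genes, summed to between 0.107% and 0.212% in all groups. The 11 endothelial markers were at most 0.00705% of counts and were lower in control treated (0.00263% and 0.00363%) than in the other libraries. Fibroblast markers, 8 genes, summed to 0.00679% and 0.0076% in control treated and to between 0.00903% and 0.0882% in the others. T and NK cell markers, 14 genes, summed to between 0.00659% and 0.0329%, and the 7 B and plasma cell markers to between 0.00711% and 0.1% with Mzb1 at 0 in at least 1 library. Their part in the Ly6 differences was not tested.

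Across the 10 libraries the genes most like each member were found by Pearson r of log2(CPM + 1) among 7097 genes of at least 10 CPM. The libraries share the treatment and graft groups, so these are descriptions. Ly6i was most like the guanylate-binding protein genes Gbp10 (r = 0.999), Gbp8 (0.998) and Gbp9 (0.997), which are known interferon-gamma targets. Ly6c2 was most like Oas1a, a sensor of viral RNA (0.997), Cd274, which encodes the PDL1 that the therapy blocks (0.996), and Fbxl5 (0.995). Ly6g was most like Gbp2b (0.975), Mtus1 (0.972) and Tceanc2 (0.970), and Ly6e like Tspo (0.994), Hpcal1 (0.987) and Plscr1 (0.986). Ly6a was most like Ech1 (0.988), Vwa5a (0.986) and Fryl (0.982). Ly6c1 was most like Lurap1l (0.979) and the epithelial junction genes Cldn4 (0.974) and Cgn (0.974). Ly6d had no partner above 0.927 (Abhd17c), followed by Smim20 (0.873) and Dmkn (0.872), a gene of the epidermis. Between members, Ly6c2 and Ly6i had r = 0.988, and Ly6c1 and Ly6c2 had r = -0.526 (n = 10 libraries).

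The wider Ly6/uPAR superfamily had calls in both directions. Of 39 other listed genes 35 were in the table and 27 were tested. In control grafts 6 were called higher after treatment and 2 lower (edgeR), where 18.7% of all genes were called higher and 15.3% lower, with a median log2 fold change of 0.01 against -0.30 over all genes. In Sox2Hi grafts none was called by edgeR (2 had an unadjusted p under 0.05), with a median of 0.09 against 0.07. Between grafts 2 were called higher in Sox2Hi and none lower in naive libraries, and 1 higher and 1 lower in treated ones. Of all genes 1.87% were called between naive grafts, and 4.18% were called higher and 9.57% lower between treated grafts. In the interaction, where 11.3% of all genes were called higher and 16.2% lower, 1 was called higher (Ly6h, 1.22, edgeR adjusted p = 0.020, named after its values were seen) and 2 lower. The expressed-gene scaling kept 6 of the genes. It called 2 higher after treatment in control grafts, where 24.1% of all genes were. Between grafts it called 2 higher in Sox2Hi in naive and 1 in treated libraries, and none lower. Of all genes 14.0% were called between naive grafts and 15.0% higher between treated ones. In the interaction it called 1 lower, where 2.84% of all genes were. Plaur, which encodes the urokinase receptor and is abundant in neutrophils, was at 2528, 2838 and 1999 CPM in control naive libraries and at 11515 and 8641 CPM in control treated ones. It was at 3502, 3454 and 3171 CPM in Sox2Hi naive libraries and at 4479 and 4922 CPM in Sox2Hi treated ones. Plaur rose by 2.04 in control grafts (SE 0.19, edgeR adjusted p = 2.1e-05), and was lower in Sox2Hi than in control grafts after treatment (-1.10, SE 0.22, edgeR adjusted p = 0.011, or -0.66 and not called with the expressed-gene scaling, adjusted p = 0.11). Its interaction was -1.56 (SE 0.28, edgeR adjusted p = 0.0050), or -0.73 and not called with the expressed-gene scaling (adjusted p = 0.18).

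Cd177, which encodes a GPI-anchored antigen of neutrophils, showed another pattern than Ly6g. In control grafts it was at 5.70, 7.49 and 5.34 CPM without and 26.0 and 14.6 CPM with treatment. In Sox2Hi grafts it was at 18.4, 25.1 and 18.6 CPM without and 9.62 and 14.1 CPM with treatment. Control treated libraries were above control naive ones, and the Sox2Hi groups were in the opposite order, a difference that was not called there. Cd177 rose by 1.71 after treatment in control grafts (SE 0.28, edgeR adjusted p = 0.00079). In naive libraries it was higher in Sox2Hi by 1.74 (SE 0.26, edgeR adjusted p = 0.036). Its interaction was called under both scalings (-2.52, edgeR adjusted p = 0.0046, and -1.70, adjusted p = 0.021). The third gene named among the rises, Ly6g6c, gave 2.51 in control grafts (SE 0.86, edgeR adjusted p = 0.042) but spread from 1.09 to 12.3 CPM in control naive and from 8.14 to 54.0 CPM in control treated libraries. With the expressed-gene scaling Ly6g6c gave 2.06 and was not called (edgeR adjusted p = 0.061). In Sox2Hi against control grafts Lypd2 was called higher in naive (2.50, edgeR adjusted p = 0.039) and treated libraries (2.88, adjusted p = 0.014). Lypd2 is named here after its values were seen.

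Genes that build and attach the GPI anchor, 26 tested of 27 listed, had 6 called higher and none lower after treatment in control grafts by edgeR, where 18.7% of all genes were called higher, with a median of 0.27. Of the 20 that the expressed-gene scaling kept, 3 were then higher and 7 lower by the same test, beside 24.1% and 33.1% of all genes. Mppe1, which trims the anchor, rose by 1.42 (SE 0.23, edgeR adjusted p = 0.00081) and Dpm1, of the enzyme that makes dolichol-phosphate mannose, by 1.32 (SE 0.16, adjusted p = 0.00010). In Sox2Hi grafts 1 of the 26 was called, lower (Pigw, -1.33, edgeR adjusted p = 0.048, named after its values were seen), where 1.82% of all genes were called lower. The interaction was called for 6, all negative, where 16.2% of all genes were called lower, among them Dpm1 (-1.51, SE 0.23, edgeR adjusted p = 0.0046), whereas on the other scale 2 (Pign and Pigq) were positive and 1 negative, beside 16.9% and 2.84% of all genes. Dpm1 was the negative one there (-0.68, adjusted p = 0.038).

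A reference list of 18 interferon-induced genes gave the scale of the response around the Ly6 genes. All 18 were called higher after treatment in control grafts and 14 in Sox2Hi grafts (edgeR), with medians of 2.34 and 1.22, where 18.7% and 1.79% of all genes were called higher. The expressed-gene scaling called 17 in each, where 24.1% and 15.0% of all genes were called higher. Ifit2, which binds viral RNA, rose by 3.27 in control (SE 0.25, edgeR adjusted p = 8.0e-06) and 2.17 in Sox2Hi grafts (SE 0.24, adjusted p = 0.0012), beside 5.36 and 4.05 for Ly6i. The interaction was called for 10 of the 18, all negative, where 16.2% of all genes were called lower, and for none with the expressed-gene scaling, which called 19.8% of all genes in either direction and also left none with an unadjusted p under 0.05.

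Inside the interval from Ly6d to Ly6g lie 18 other annotated genes, of which 16 were tested. In control grafts 6 of them were called higher and 2 lower after treatment (edgeR), where 18.7% of all genes were called higher and 15.3% lower, with a median of 0.21. In Sox2Hi grafts the only call was I830127L07Rik, higher, a gene that shares 31-base stretches with Ly6a, Ly6c1, Ly6c2 and Ly6i and is named after its values were seen. Of all genes 1.79% were called higher there.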

How the data were processed

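RNA was extracted with a column kit for small samples and made into libraries with a low-input kit, per the labels' protocols. The authors deposited 1 table of whole-number estimated counts per gene. The submitters' processing notes name kallisto 0.44.0 and mm10, and kallisto's index and settings are not given in the sources used here. The 96 entries that are not mouse genes (92 ERCC and 4 transgene sequences) reached no more than 0.0028% of any library and stayed out of library sizes and tests. Estimated counts without strand information can divide reads among near-identical genes. Titles gave each library's graft and treatment.

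All 10 libraries entered 1 edgeR 4.0.16 (R 4.3.3) fit with the 4 groups as terms, after filterByExpr and TMM, with quasi-likelihood F-tests and Benjamini-Hochberg adjustment over 29648 genes. A gene was called at an adjusted p under 0.05. The test was checked on simulated data with 200 changed genes. Total counts of 13815734 to 22986193 per library set the precision, and the common biological coefficient of variation was 0.232, and Wilson intervals cover counting error only. Exact permutation tests were run on shares of reads within a library (SciPy 1.17.1).

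The 7 members and the gene lists were chosen with earlier results of these data known. From the other family genes, at most 3 rises and 3 falls called per contrast with a mean of at least 5 CPM are named, and 2 each way from the other lists. For each member the 3 most like genes are named, leaving out Gm and Rik names. Alternatives were the expressed-gene scaling, RLE factors, library totals, no filter, DESeq2 1.42.0, limma-voom (limma 3.58.1), replicate blocks by title or description number, the groups compared alone, subtraction of the silent-gene rate (1464 olfactory and vomeronasal receptor genes), a Ddx3y covariate for host sex, summed pairs and leaving out each library. Added after the data were seen were the shares, expressed-gene factors applied to every filtered gene, a block fit of the naive libraries alone, a crossed block and the shares compared within the naive pairs. Deviations from group means correlated at 0.335, 0.35 and 0.422 in the 3 naive pairs with the same title number. Control treated libraries correlated at 0.212 to 0.307 with naive ones of their number, and Sox2Hi treated libraries at -0.32 to 0.029 with the others. Ddx3y reads followed the numbers in naive libraries (4 and 6 for number 1, 3854 and 2814 for 2, 1436 and 1007 for 3). In Sox2Hi treated libraries they were 3980 for number 1 and 7 for 2. The numbers are therefore taken to pair the naive libraries, which rests on these correlations and not on the labels. The part of host sex in them was not tested. No library repeated another of its group, and libraries of different groups were not compared for this.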

Additional observations from a re-analysis of the deposited data

Results flagged for a closer look

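The treatment response of 5 of the 7 genes differed between grafts by the interaction test of edgeR with the all-gene scaling. All 5 were negative, where 16.2% of all genes were called lower. The interaction was -1.66 for Ly6g, -1.14 for Ly6a, -1.90 for Ly6c2, -1.22 for Ly6e and -1.31 for Ly6i on the log2 scale. None of the 5 was called with the expressed-gene scaling, where 19.8% of all genes were called in either direction. Reads of the tdTomato reporter, an entry outside the gene table's mouse genes, were present in every library: 259, 135 and 234 in control naive, 320 and 514 in control treated, and, for Sox2Hi grafts, 314, 223 and 192 before and 443 and 232 after treatment.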

How the results depend on the processing

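Of the 7 genes, 5 were called in control and 3 in Sox2Hi grafts after treatment, none between naive grafts, 4 between treated grafts and 5 in the interaction. The counts for treatment stayed within 1.5 times of these under every alternative: 5 to 6 and 2 to 4, while the share of all genes called ran from 14.7% to 73.0% and from 0.254% to 21.6%. In control grafts library totals and background subtraction each gave 4 higher and 1, Ly6c1, lower. The expressed-gene scaling, library totals only, background subtraction and the expressed-gene factors on all filtered genes gave 0 interaction calls, where they called 19.8%, 42.2%, 8.09% and 36.9% of all genes, against 27.5%. Between treated grafts, where all 4 were lower in Sox2Hi, library totals gave 2 (1 lower, and Ly6c1 higher), the replicate block by description number 2, both lower, the groups compared alone 0 and background subtraction 1, Ly6c1 higher, with no lower call left. Of all genes these 4 fits called 37.1%, 11.0%, 0.00791% and 3.47%, against 13.7%. Between naive grafts, RLE factors gave 1, DESeq2 3, limma-voom 3, the title-number replicate block 1, the blocked fit of the naive libraries 1 and the block with crossed numbers 1. Of all genes tested, the calls between naive grafts rose likewise, from 1.87% to 4.35% with RLE factors, 13.7% with DESeq2, 18.8% with limma-voom, 7.7% with the title-number block, 14.3% with the blocked fit of the naive libraries and 6.42% with crossed numbers. The crossed block called 5 of the 7 between treated grafts, 4 lower and Ly6c1 higher, and 2 in Sox2Hi treatment, without Ly6g. Leaving out 1 library gave 0 to 3 calls between naive grafts, 0 to 5 between treated grafts and 2 to 5 in the interaction, beside 0.0103% to 7.39%, 0.204% to 18.1% and 12.3% to 31.6% of all genes. Leaving out a treated library leaves a lone sample that is assumed to vary like the other groups. The title-number block changed the call of no member other than Ly6c1 between naive grafts and Ly6g in Sox2Hi treatment, and the description-number block those of Ly6g and Ly6e between treated grafts and of the Ly6g interaction. The cause was not tested beyond the scaling shifts given above.

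Values that changed sign were all uncalled on the all-gene scale, apart from Ly6e between treated grafts. With the expressed-gene scaling they were Ly6a in Sox2Hi treatment (0.20), Ly6g and Ly6c2 between naive grafts (-0.028 and -0.34) and the interactions of Ly6c1 (0.61) and Ly6d (0.14). Its factors on all filtered genes gave 0.20, -0.028, -0.34, 0.61 and 0.14. Library totals gave Ly6c2 -0.21 between naive grafts, Ly6a 0.10 and Ly6e 0.045 between treated grafts, and interactions of 0.80 for Ly6c1 and 0.34 for Ly6d. Background subtraction gave Ly6a 0.21 in Sox2Hi treatment, Ly6c2 -0.34 between naive grafts and interactions of 0.64 for Ly6c1 and 0.16 for Ly6d. The title-number block gave Ly6a 0.074 in Sox2Hi treatment, and crossed 0.076. Between naive grafts limma-voom gave Ly6c2 -0.047 and Ly6i 0.038, the groups alone Ly6c2 -0.036, and the naive block Ly6c2 -0.039. There, leaving out 1 library gave Ly6c2 from -0.13 to 0.23, Ly6i from -0.35 to 0.081 and Ly6d from -0.81 to 0.33, and single reversed values of -0.08 and -0.034 for Ly6c2 and 0.014 for Ly6i. The Ly6c1 interaction ran from -0.50 to 0.036, above 0 only without control treated replicate 2. The summed Ly6c pair gave 2.12, 0.26 and -1.01 where Ly6c1 alone had the other sign, and the summed Ly6a and Ly6i gave 1.12 for Ly6a in Sox2Hi treatment and 0.44 for Ly6i between naive grafts. Only 32 to 63 Ly6g reads in a naive library limit its precision.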
